A study of Canis lupus familiaris with 36 samples.

Results

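The genes described are 9 components of the B cell receptor and its first signalling steps, CD79A, CD79B, CD22, BLNK, BLK, SYK, PLCG2, BTK and LYN, across lymphomas of dogs. They were chosen by symbol, as the probe sets of a canine expression array that the platform annotation pairs with one of these names, and are 9 of the 15115 genes the array represents. For each gene the brightest probe set, by its mean over the 36 arrays, was used, and 15 probe sets stood for the 9 genes in all. All 9 passed the filter on dim genes, an intensity of at least 16 (log2 value of 4, called the minimum in what follows) in at least 4 dogs, as did 7500 genes in all.

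Tumour tissue of 35 dogs, 15 male and 20 female, was measured on 36 arrays, because 1 case of diffuse large B-cell lymphoma had 2 arrays, which were averaged. The tissue is called primary tumour in the labels, no treatment is given, and each dog counts as 1 replicate. The labels give the age at diagnosis without a unit, so ages are given as bare label values.

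The B-cell phenotype held 17 dogs in 3 disease labels. DLBCL (diffuse large B-cell lymphoma) held 10 dogs of high grade, with label ages of 4 to 14. They were 4 males and 6 females, 6 Golden Retrievers, 2 Rottweilers, 1 Labrador and 1 Boxer. MZL (marginal zone lymphoma) held 5 dogs of low grade, aged 4 to 10, 1 male and 4 females, of which 4 were Golden Retrievers and 1 a Mastiff. BL, whose letters the labels do not spell out, held 2 dogs of high grade, aged 2 to 5, a male and a female, with 1 Golden Retriever and 1 German Shepherd. The T-cell phenotype also held 17 dogs. LBT, likewise not spelled out, held 4 dogs of high grade, aged 3 to 10, 1 male and 3 females, of which 3 were Golden Retrievers and 1 a Labrador. PTCL (peripheral T-cell lymphoma) held 4 dogs, aged 6 to 14, 3 of high and 1 of intermediate grade. They were 2 males and 2 females, 2 Boxers, 1 Golden Retriever and 1 Bichon Frise. TZL (T-zone lymphoma) held 9 dogs of low grade, aged 7 to 11, 6 males and 3 females, of which 8 were Golden Retrievers and 1 a Mastiff. NBNT, labelled as neither B nor T, was 1 female Golden Retriever of low grade aged 8 and entered no test. Each array measured whole dissociated and filtered tumour tissue, which can hold normal lymphocytes, macrophages and stroma beside the tumour cells.

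The B cell receptor is a membrane immunoglobulin that has no kinase of its own and signals through its partner chains CD79A and CD79B. When antigen clusters the receptor, the Src family kinases LYN and BLK phosphorylate the tails of these chains, which then dock and activate the kinase SYK. SYK phosphorylates the adaptor BLNK, a scaffold that brings the kinase BTK to the phospholipase PLCG2, whose products release calcium and activate protein kinase C. CD22, a lectin of the B cell surface, carries inhibitory tyrosine motifs that LYN phosphorylates, and so recruits phosphatases that damp the signal. SYK, BTK, LYN and PLCG2 also work in macrophages and other myeloid cells, whereas CD79A, CD79B, BLK and CD22 are used as marks of B cells.

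Precision was limited by the number of arrays. Array medians lay between 5.57 and 6.13 in intensity, and between 32.2% and 35.6% of an array's probe sets had an intensity of 16 or more. A set of 6 arrays stood apart by its actin 3' control, with log2 values of at least 14 against at most 12.5 on all others. These came from 3 TZL dogs, 2 DLBCL dogs and 1 PTCL dog, with none from the other labels. Where leaving out the set changed how many members were called, the count without it is given. A probe set annotated to EIF2S3 separated the sexes by label, at 3.93 to 11.2 in 14 males and 1.57 to 2.08 in 19 females, and went against the sex label of 2 dogs, MZL replicate 2 (10.47) and PTCL replicate 3 (1.63). Leaving out these 2 dogs gave the same counts of members called in all 8 comparisons. Lineage markers followed the phenotype labels. The mean log2 value of 7 T cell markers was 9.03 to 11.64 in T dogs and 5.84 to 8.11 in B dogs. The mean of the 4 B cell markers on the array (MS4A1, EBF1, FCRLA and PAX5, the last below the minimum in every dog) was 8.07 to 8.9 in B dogs and 2.54 to 8.01 in T dogs. The dog labelled NBNT had 10.77 and 7.84, respectively.

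The first question was how far the receptor module separates B-cell from T-cell lymphoma. All 9 genes were higher in the 17 B dogs than in the 17 T dogs, by 3.22-fold for CD79A to 21.9-fold for BLNK, with a median log2 difference of 3.42 against 0.03 over all genes tested. The background is high, since 46.5% of genes were called in this comparison and 24.2% were called higher in B. Calls are at an adjusted p under 0.05 (limma, Benjamini-Hochberg over 7500 genes). In whole tissue, fewer cells of a type and less RNA per cell cannot be told apart. The macrophage list described further on had a mean of 3.81 to 6.98 in B and 3.1 to 7.81 in T dogs, with 1 of 10 genes called, and the 3 tested plasma cell genes were lower in B dogs. None of the 5 stromal and 2 neutrophil or mast cell genes tested was called.

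Of the receptor's signalling chains, CD79A had the smallest difference of the 9 genes. Its log2 value was 6.6 to 9.09 in DLBCL (median 7.65), and 8, 9.05, 9.75, 9.03 and 9.16 in the 5 MZL dogs. The 2 BL dogs had 6.22 and 6.89. Among T dogs it was 2.13, 5.77, 2.23 and 6.96 in LBT, 7.69, 3.48, 3.79 and 8.71 in PTCL, and 5.42 to 8.65 in TZL (median 7.48). The phenotypes overlapped widely, with 11 of 17 T dogs at or above the lowest B dog, a BL dog. The mean was 7.97 ± 1.11 (SD, n = 17) in B and 6.29 ± 2.17 (n = 17) in T, a log2 difference of 1.69 (SE 0.57, limma adjusted p = 0.0152). Among Golden Retrievers alone the difference was 1.47 and was not called (limma adjusted p = 0.0641). The 2 arrays of the repeated case differed by 1.33 for CD79A, the most of the 9 genes, and by 0.02 for BTK, the least.

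CD79B, the other chain, showed a wider separation. It measured 9.08 to 11.23 in DLBCL (median 9.43), 11.11, 10.29, 11.48, 11.13 and 10.71 in MZL, and 8.78 and 9.34 in BL. In LBT it was 1.42, 3.83, 2.91 and 7.16, in PTCL 9.31, 2.67, 6.3 and 10.02, and in TZL 2.08 to 10 (median 8.38). All 4 LBT dogs lay below every B dog, while 5 of 17 T dogs, from PTCL and TZL, reached the B range. The B mean of 10.12 ± 0.92 was 11.9-fold above the T mean of 6.54 ± 2.93 (log2 difference 3.58, SE 0.72, limma adjusted p = 0.000122).

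Of the Src family kinases of the receptor, BLK, the member largely restricted to B cells, was 4.7 to 7.81 in DLBCL (median 6.81), 7.95, 8.09, 7.19, 7.37 and 7.4 in MZL, and 7.51 and 7.15 in BL. It lay below the minimum in 13 of 17 T dogs, among them all 4 LBT dogs (2.56, 2.84, 2.72 and 3.19) and 7 of 9 TZL dogs. The PTCL dogs had 5.02, 2.08, 2.52 and 5.41. The mean was 6.87 ± 1 in B and 3.45 ± 1.12 in T, a log2 difference of 3.42 (SE 0.35, limma adjusted p = 1.82e-09). When dimmer values were raised to the minimum, the fold fell from 10.7 to 5.99, so the size rests in part on values too dim to measure.

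LYN, which both starts and restrains receptor signalling, was 9.32 to 10.47 in 9 of 10 DLBCL dogs and 4.85 in DLBCL replicate 3. It was 10.46, 10.2, 9.77, 10.31 and 10.49 in MZL and 9.85 and 10.04 in BL. T dogs had 4.85, 5.27, 7.51 and 8.21 in LBT, 8.23, 7.32, 7.75 and 9.78 in PTCL, and 2.91 to 9.45 in TZL (median 8.31). Because of the single low DLBCL dog, 16 of 17 T dogs lay at or above the lowest B dog. The log2 difference between phenotypes was 2.41 (SE 0.52, 5.33-fold, limma adjusted p = 3e-04), and 2.72 without that dog (limma adjusted p = 7.48e-06). The other LYN probe set was also low in this dog, at 5.3 against 8.94 to 10.05 in the other DLBCL dogs. In this dog 3 of 7500 genes, LYN included, lay at least as far (4.48) below the lowest other DLBCL dog.

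SYK, the kinase that docks on the phosphorylated chains, was high in all B dogs, at 9.56 to 11.53 in DLBCL (median 10.28), 11.23, 10.35, 10.74, 10.77 and 10.67 in MZL, and 9.94 and 10.03 in BL. It measured 3.37, 3.64, 5.44 and 7.3 in LBT, 8.59, 5.77, 7.26 and 9.96 in PTCL, and 2.87 to 9.54 in TZL (median 8.32). A single T dog, PTCL replicate 4, reached the B range. This dog is the PTCL dog labelled intermediate grade. Its mean of the T cell markers, 9.03, was the lowest of the T dogs. The SYK means of 10.4 ± 0.52 in B and 6.96 ± 2.15 in T differed by 3.44 on the log2 scale (SE 0.52, 10.8-fold, limma adjusted p = 1.88e-06).

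BLNK, the adaptor that SYK phosphorylates, gave the largest difference and was the one member without overlap between phenotypes. Its value was 10.02 to 11.27 in DLBCL (median 10.52), 10.69, 10.73, 10.03, 10.75 and 10.83 in MZL, and 10.97 and 11.75 in BL. T dogs had 2.16, 2.37, 3.75 and 6.64 in LBT, 8.41, 3.91, 5.46 and 9.78 in PTCL, and 1.59 to 9.23 in TZL (median 8.02). The lowest B dog, at 10.02, stood just above the highest T dog, at 9.78. Every B dog lay above every T dog for 17 of 7500 genes (0.227%), BLNK among them. The log2 difference was 4.45 (SE 0.64, 21.9-fold, limma adjusted p = 8.62e-07), with means of 10.67 ± 0.45 and 6.21 ± 2.7. The other BLNK probe set gave 2.18, also called, so the size of the fold depended on the probe set.

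BTK and PLCG2 act downstream of BLNK, and BTK had the smallest standard deviation of the 9 genes in B dogs. BTK, the kinase that activates PLCG2, ranged from 10.59 to 11.24 in DLBCL (median 10.96), was 11.64, 11.01, 10.61, 10.93 and 11.17 in MZL, and 11.15 and 10.63 in BL. In T dogs it was 4.18, 5.73, 6.46 and 8.21 in LBT, 9.79, 7.14, 7.8 and 10.83 in PTCL, and 2.66 to 10.4 in TZL (median 9.32). PTCL replicate 4 was again the T dog that reached the B range. The means of 10.96 ± 0.28 and 7.91 ± 2.24 differed by 3.05 (SE 0.53, 8.28-fold, limma adjusted p = 1.67e-05).

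PLCG2, the phospholipase, was 9.11 to 10.81 in DLBCL (median 9.87), 10.25, 9.86, 9.68, 10.07 and 9.96 in MZL, and 9.75 and 10.78 in BL. It was 3.32, 3.98, 5.37 and 6.58 in LBT, 7.97, 5.24, 5.56 and 9.96 in PTCL, and 2.04 to 8.84 in TZL (median 7.58). The same PTCL dog alone reached the B range. The log2 difference was 3.69 (SE 0.5, 12.9-fold, limma adjusted p = 3.12e-07).

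CD22, the inhibitory co-receptor, measured 6.44 to 8.19 in DLBCL (median 7.73), 5.67, 8.39, 7.49, 8 and 8.19 in MZL, and 6.51 and 7.82 in BL. It was 2.52, 3.05, 3.22 and 4.01 in LBT, 5.76, 2.76, 3.62 and 5.5 in PTCL, and 3.24 to 7.29 in TZL (median 4.3). In 8 of 17 T dogs it lay below the minimum, and 4 T dogs reached the lowest B dog, MZL replicate 1. The log2 difference was 3.14 (SE 0.37, 8.82-fold, limma adjusted p = 2.5e-08).

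**Figure D1:**
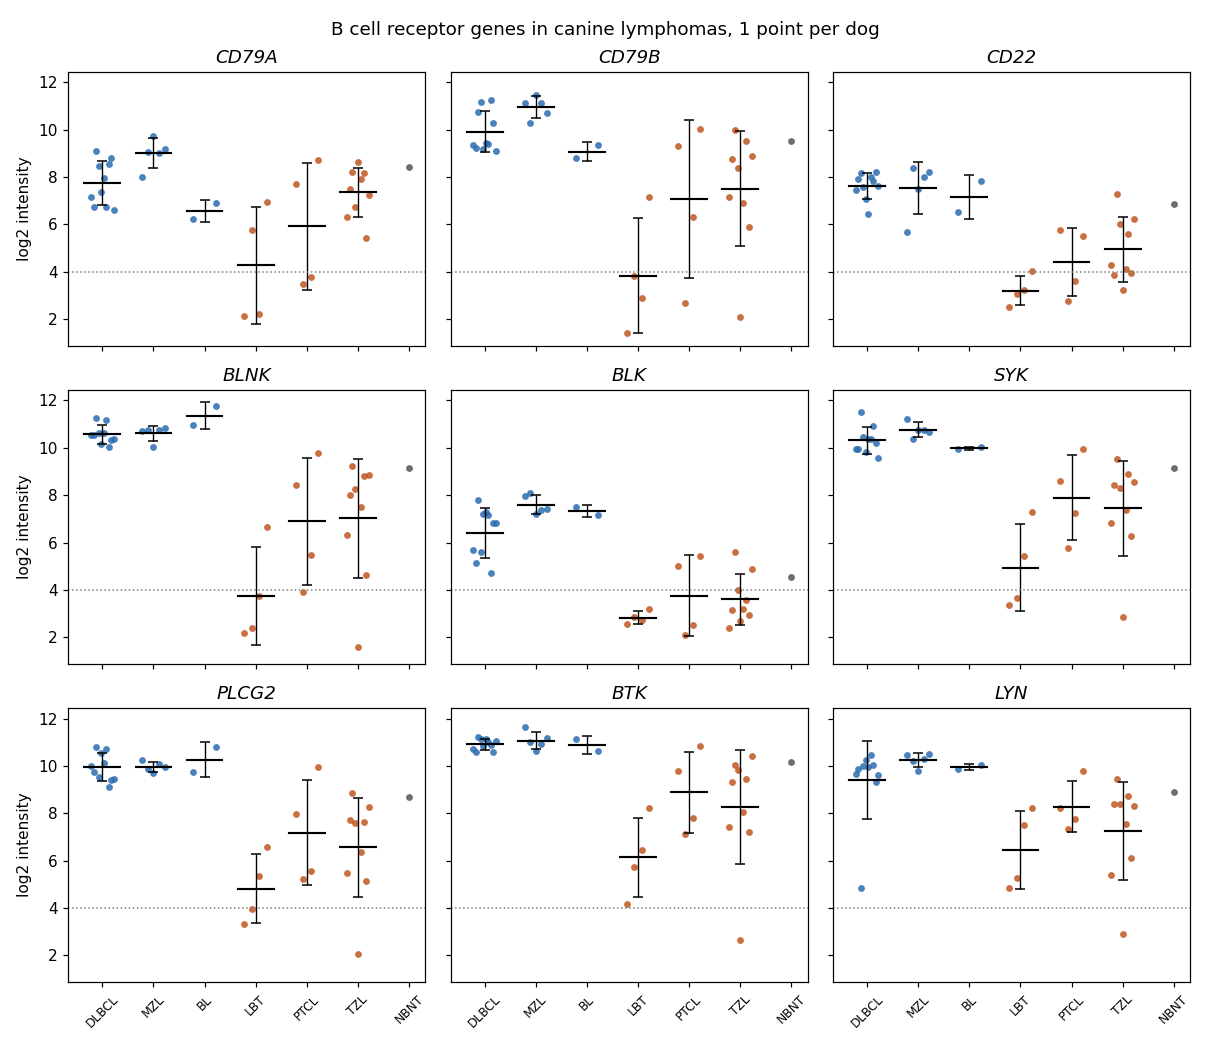
Log2 intensity of each of the 9 genes by disease label, 1 point per dog (blue B, orange T, grey NBNT), with a bar at the group mean, whiskers of 1 SD and a dotted line at the minimum of log2 4. The B-cell groups (DLBCL, MZL, BL) sit high, with LYN in DLBCL replicate 3 (4.85) apart, and the T-cell groups reach from below the minimum up toward or into the B range.

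The T dogs were more spread than the B dogs for every member. The ratio of the T standard deviation to the B standard deviation was 1.12 for BLK, 1.4 for LYN, 1.89 for CD22, 1.96 for CD79A, 3.17 for CD79B, 4.09 for both SYK and PLCG2, 5.99 for BLNK and 7.97 for BTK. The median over the 9 genes was 3.17, against 1.1 over all genes tested. A ratio as high as that of BTK was found in 0.56% of genes, and one as high as that of BLNK in 0.973%. The share was 1.92% for SYK, 1.93% for PLCG2, 3.07% for CD79B, 9.31% for CD79A and 10.3% for CD22. For LYN it was 26.6% and for BLK 47.4%, so the ratio of BLK is near that of genes in general. The phenotype accounted for 20.3% of the variance of CD79A over the 34 dogs and 73.4% of that of BLK, and the 6 disease labels for 51.2% and 78.8%, the widest gain being that of CD79A.

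Within T dogs the 9 genes varied together. All 36 pairs were positively correlated over the 17 T dogs, from 0.28 (CD79A with LYN) to 0.98 (BLNK with SYK), with a median r of 0.82 that was the same after the means of the 3 T labels were removed. Within the 17 B dogs 19 of 36 pairs were positive and the median r was 0.08. The highest of these was CD79A with CD79B, at 0.87, and the lowest was CD22 with BTK, at -0.5. Over all pairs of tested genes the median r was 0.01 in T and 0.02 in B dogs. These correlations are descriptions without a test, and all values of a dog share 1 array and 1 tissue sample.

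The T dogs could be placed in an order by their mean rank over the 9 genes, where 1 is the lowest of 17. LBT replicate 1 came lowest (mean rank 1.89), followed by TZL replicate 5 (3.67), PTCL replicate 2 (3.89), LBT replicate 2 (4) and LBT replicate 3 (4.56). PTCL replicate 4 (16.33) and TZL replicate 3 (16) came highest. The PTCL and TZL dogs thus lay at both ends of the order. In TZL replicate 5, BLNK, SYK, PLCG2, BTK and LYN were each the lowest of all T dogs and 8 of 9 genes lay below the minimum, but CD79A, at 8.65, was the highest of the TZL dogs. In LBT replicate 1, 7 of 9 genes lay below the minimum.

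Markers of other cells moved with this order. MS4A1 (CD20), EBF1 and FCRLA, markers of B cells, had log2 values of 3.42, 2.8 and 1.78 in LBT replicate 1 and 2.91, 2.15 and 2.39 in TZL replicate 5, but 10.8, 7.74 and 10.72 in PTCL replicate 4. Over the 17 T dogs, the mean of these 3 markers correlated with BLNK at Pearson's r = 0.98 and Spearman's rho = 0.98 (permutation test, adjusted p = 4.5e-05 for r and 5.14e-05 for rho). Before adjustment the permutation test gave p = 1e-05 for both, the smallest the resamples allow. The other genes ran from CD79A (r = 0.57, rho = 0.6, permutation test, adjusted p = 0.0329 and 0.0287) through BLK (r = 0.79, rho = 0.88) and CD22 and LYN (both r = 0.87, rho = 0.9) to SYK (r = 0.97, rho = 0.96). Without the 2 dogs farthest from the median of the markers, r was 0.76 to 0.97 over the 9 genes. Over the 13 T dogs outside the array set it was 0.57 to 0.98. The means of the T labels were not removed here, so differences between labels enter these relations.

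A list of 10 macrophage genes moved the same way. Its mean was 3.1 in TZL replicate 5 and 7.81 in PTCL replicate 4. It correlated with the 9 genes over the T dogs at r = 0.42 (CD79A; rho = 0.54, permutation test, adjusted p = 0.159 and 0.0574) to 0.87 (PLCG2; rho = 0.81, permutation test, adjusted p = 0.000131 and 0.000334). Without the 2 dogs farthest from its median, r was 0.65 to 0.79, and over the 13 T dogs outside the array set 0.5 to 0.93. The macrophage list and the B cell markers correlated with each other over T dogs at r = 0.82, so their shares in the order cannot be told apart, and the part of either in the members' values was not tested.

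In the 17 B dogs the relations differed in sign between genes. With the B cell markers r ran from -0.42 (CD79B) to 0.6 (PLCG2; rho = 0.52, permutation test, adjusted p = 0.0256 and 0.0628), and BLNK had r = 0.55 (rho = 0.5, permutation test, adjusted p = 0.0396 and 0.0824). Without the 2 farthest dogs these were 0.72 and 0.68, respectively. With the macrophage list r ran from -0.08 to 0.32, with adjusted p of at least 0.337 (permutation test). Over the 15 B dogs outside the array set r was -0.29 to 0.56 with the B cell markers and -0.08 to 0.59 with the macrophage list, and for BLK with the latter it went from 0.32 to 0.59. Without the 2 dogs farthest from the median of the macrophage list, r with that list was -0.24 to 0.09, and 0.04 for BLK. These 36 relations, 9 genes with 2 lists in each phenotype, formed 1 family for the adjustment.

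**Figure D2:**
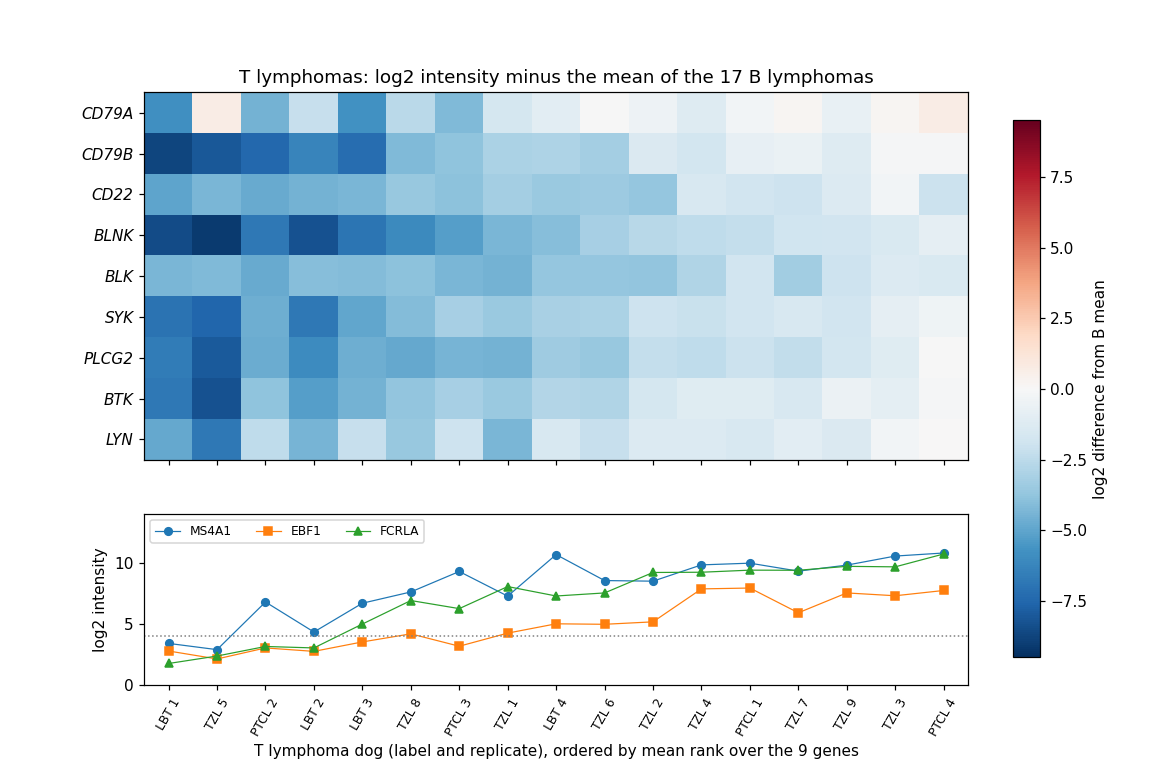
The 17 T dogs in order of their mean rank over the 9 genes (left lowest, right highest). Upper panel: each gene's log2 intensity minus its mean over the 17 B dogs, by colour (blue lower, red higher); lower panel: log2 intensity of the B cell markers MS4A1, EBF1 and FCRLA in the same dogs, with a dotted line at the minimum. LBT replicate 1 and TZL replicate 5 at the left are far below the B mean in most genes and below the minimum in all 3 markers, PTCL replicate 4 at the right end is near the B mean, and CD79A in TZL replicate 5 (8.65) stands out from its column.

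The module was then compared between T-cell labels. LBT was lower than TZL for 5 of 9 genes, CD79A, CD79B, CD22, BLNK and SYK, where 30.1% of all genes were called, 12.4% lower and 17.8% higher. The log2 value fell by 3.07 for CD79A (SE 0.83, limma adjusted p = 0.00538), by 3.67 for CD79B (SE 1.12, limma adjusted p = 0.0128) and by 3.29 for BLNK (SE 1.01, limma adjusted p = 0.0138). It fell by 2.51 for SYK (SE 0.81, limma adjusted p = 0.0182) and by 1.75 for CD22 (SE 0.61, limma adjusted p = 0.0277). BTK had a difference of -2.12 (limma adjusted p = 0.0646), PLCG2 of -1.74, LYN of -0.79 and BLK, near or below the minimum on both sides, of -0.77. The median of the 9 differences was -2.12, against 0.05 over all genes.

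Part of these sizes lies below the minimum. When dimmer values were raised to the minimum, CD79B was 7.61-fold lower in LBT, BLNK 6.17-fold, SYK 5.25-fold and CD79A 4.48-fold, while CD22 was no longer called (limma adjusted p = 0.139) and BTK was (limma adjusted p = 0.0279). The other probe sets of BLNK and SYK gave smaller differences, -0.71 and -0.9, neither called (limma adjusted p = 0.385 and 0.405), and the other BTK probe set gave -2.75 (limma adjusted p = 0.0164). That of PLCG2 gave -0.11 (limma adjusted p = 0.928), that of CD22 -1.66 and that of LYN -0.67. Without LBT replicate 1 no member was called, without LBT replicate 2 only CD79A and CD79B were, and without TZL replicate 5 there were 7. Without the array set, which holds 3 TZL dogs and no LBT dog, 2 were called, among Golden Retrievers alone 1, and with only these groups in the fit 2. Other cell markers and RNA quality moved with the groups too. The mean of the B cell markers was 4.16 ± 1.66 (2.62 to 6.39, n = 4) in LBT and 6.14 ± 1.58 (2.54 to 7.58, n = 9) in TZL, with 1 of 3 tested genes called lower. The macrophage list was 4.73 ± 0.5 (4.12 to 5.34) in LBT and 5.61 ± 1.29 (3.1 to 7.55) in TZL, with 1 of 10 genes higher and 1 lower. All 3 tested plasma cell genes were lower in LBT, with a list mean of 6.08 ± 0.36 against 7.78 ± 0.56. The 3' minus 5' difference of the actin control averaged -0.58 in LBT and 0.75 in TZL. The part of these in the members' differences was not tested.

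LBT lay below PTCL in all 9 means, with a median log2 difference of -2.37, but limma called none of the members and 0.68% of all genes. At an unadjusted p under 0.05 there were 5 members and 934 genes. SYK differed by -2.96 (SE 0.95, limma adjusted p = 0.147), CD79B by -3.25 (SE 1.31, limma adjusted p = 0.279) and BLNK by -3.16 (SE 1.19, limma adjusted p = 0.23). The other BLNK probe set gave -0.03 (limma adjusted p = 0.994), so the size for BLNK depended on the probe set. The other probe sets of SYK and PLCG2 also gave smaller differences, -1.93 and -1.08. Those of BTK, CD22 and LYN gave larger ones, -3.25, -1.31 and -2.11. Other markers were lower in LBT as well. The mean of the B cell markers was 4.16 ± 1.66 against 6.17 ± 1.96 in PTCL (n = 4 each), and that of the macrophage list 4.73 ± 0.5 against 6.37 ± 1.15, with a median difference of -1.68 over its 10 genes and none called. The 3 tested plasma cell genes had a median difference of -2.09, none called, and the actin 3' minus 5' difference averaged -0.58 against 0.72. The part of these in the members' differences was not tested. The values of the 4 dogs on each side overlapped for every one of these genes. Without PTCL replicate 2 SYK and CD79B were called, and 1 member was called without LBT replicate 4 or without TZL replicate 5, which enters through the shared estimate of the spread.

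Between PTCL and TZL no member was called, where limma called 13.7% of all genes. The 9 differences ran from -1.43 for CD79A (SE 0.83, limma adjusted p = 0.275) to 1.02 for LYN, with a median of 0.16, and none had an unadjusted p under 0.05, as 2026 genes did. The standard deviation within PTCL was 1.07 to 3.35 for the 9 genes, and within TZL 1.03 to 2.5, so differences of this size lie within the spread between dogs.

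**Figure D3:**
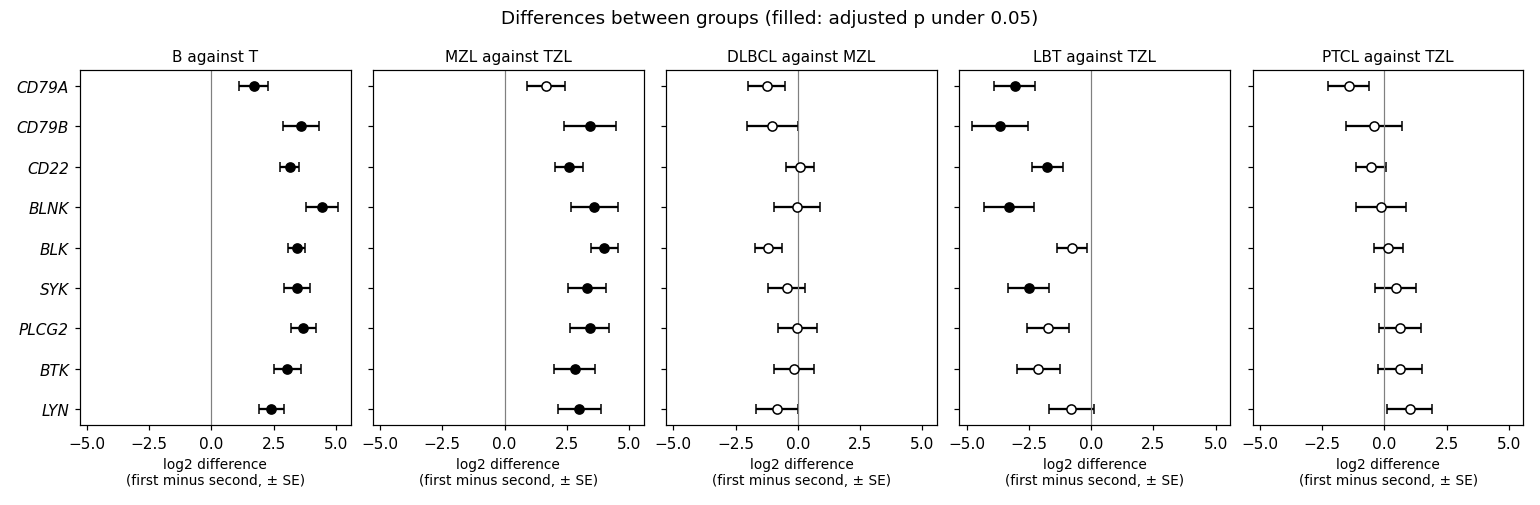
Log2 difference of each of the 9 genes in 5 comparisons, the first-named group minus the second, with whiskers of 1 standard error and filled symbols for an adjusted p under 0.05 (limma). All 9 genes are called above 0 in B against T and 8 in MZL against TZL, 5 are called below 0 in LBT against TZL, and none is called in DLBCL against MZL or PTCL against TZL.

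The low-grade tumours of both lineages give a comparison within 1 grade. MZL was higher than TZL for 8 of 9 genes, with a median log2 difference of 3.3 against 0.08 over all genes, where 27.5% of genes were called, 15.2% higher and 12.3% lower. BLK differed most, by 4 on the log2 scale (SE 0.54, limma adjusted p = 2.87e-06), though 7 of 9 TZL dogs lay below the minimum for it and the fold of 16 became 9.99 with such values set to the minimum. BLNK was 12-fold higher in MZL (limma adjusted p = 0.00471), CD79B 10.8-fold (limma adjusted p = 0.0131), PLCG2 10.6-fold (limma adjusted p = 0.00156) and SYK 9.85-fold (limma adjusted p = 0.0014). LYN was 8-fold higher, BTK 7.01-fold and CD22 6.06-fold. CD79A differed by 1.65 (SE 0.77) and was not called (limma adjusted p = 0.109). It was called with array weights (limma adjusted p = 0.016) and with only these groups in the fit (limma adjusted p = 0.0149). Other markers differed between the groups too. All 3 tested B cell markers were higher in MZL, with a list mean of 8.59 ± 0.27 (8.27 to 8.9, n = 5) against 6.14 ± 1.58 (2.54 to 7.58, n = 9). All 3 tested plasma cell genes were lower, JCHAIN by 8.03-fold, and 1 of 10 macrophage genes, C1QA, was 7.57-fold higher. The actin 3' minus 5' difference averaged -0.48 in MZL and 0.75 in TZL, and the array set held 3 TZL dogs and no MZL dog. Without the array set 8 members were called. The part of the markers, RNA quality and the array set in the members' differences was not tested.

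Among B-cell tumours no member was called between disease labels. Between DLBCL and MZL limma called 0 members and 0% of all genes. At an unadjusted p under 0.05 there were 977 genes, among them BLK, which was lower in DLBCL by 1.18 (SE 0.53, limma adjusted p = 0.335) with values of 4.7 to 7.81 against 7.19 to 8.09. CD79A (-1.25, SE 0.75) and CD79B (-1.03, SE 1.02) were also lower on average in DLBCL (limma adjusted p = 0.51 and 0.727). LYN differed by -0.84, and by -0.33 without DLBCL replicate 3. The other 5 genes lay between -0.44 and 0.08. A p that misses the threshold does not show equal levels. The actin 3' minus 5' difference averaged 1.37 in DLBCL and -0.48 in MZL. The array set held 2 DLBCL dogs and no MZL dog. The part of these in the members' differences was not tested.

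BL and DLBCL differed by -1.19 for CD79A to 0.91 for BLK, and limma called 0 members and 0.0267% of all genes. At an unadjusted p under 0.05 there were 0 members and 426 genes. The BL values rest on 2 dogs, for which SYK differed by 0.1 and CD22 by 1.31. The difference between the grade steps, DLBCL minus MZL against PTCL minus TZL, was likewise not called for any member, against 1.96% of all genes, and no member but 1054 genes had an unadjusted p under 0.05. Its values ran from -1.86 for LYN (SE 1.23, limma adjusted p = 0.525) to 0.62.

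The lists of other pathway genes held genes called in both directions. Of 41 further genes of B cell receptor signalling, 33 were paired with a probe set and 30 were tested. Between B and T dogs 9 rose, 6 fell and 15 were not called, with a median log2 difference of 0.28. Over all genes 24.2% rose and 22.3% fell, so the list as a whole lies near the background. Higher in B were BANK1, an adaptor that binds LYN (4.08, SE 0.62), STAP1, an adaptor downstream of the receptor (3.77, SE 0.55), and RASGRP3, an activator of Ras (3.22, SE 0.39). PIK3AP1, the BCAP adaptor that recruits PI3 kinase, was higher by 2.71 (SE 0.44) and PRKCD, a protein kinase C, by 2.3 (SE 0.31). The limma adjusted p of these 5 genes was at most 5.82e-06, although STAP1, RASGRP3 and PIK3AP1 lay below the minimum in 9, 11 and 10 of 17 T dogs. PIK3R1, the regulatory subunit of PI3 kinase that both lineages use, fell by 1.3 in B (SE 0.2, limma adjusted p = 2.16e-06).

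The list of inhibitors of receptor signalling was mixed too. It also holds FCRL1, for which no inhibitory role is claimed here, and the counts of the list include that gene. Of 22 listed, 19 were paired and 15 tested, of which 7 rose, 2 fell and 6 were not called, with a median of 0.67, where 24.2% of all genes rose and 22.3% fell. FCRL5, 1 of the 7, lay below the minimum in 13 of 17 B and all 17 T dogs, and it lost its call when dimmer values were raised to the minimum (limma adjusted p = 0.3). DOK3, an inhibitory adaptor, was higher in B by 2.84 (SE 0.33, limma adjusted p = 1.57e-08). FCRL4 and FCRL1, Fc receptor-like proteins of B cells, were called higher but were dim. FCRL4 lay below the minimum in all 17 T and 8 of 17 B dogs, and FCRL1 in 14 T and 4 B dogs. With dimmer values raised to the minimum, they were 1.44-fold and 1.92-fold higher in B (limma adjusted p = 0.00956 and 0.00872). PTPN6, the phosphatase SHP-1 that CD22 recruits, was higher by 0.95 (SE 0.15, limma adjusted p = 4.28e-06). SLA, an adaptor that lowers antigen receptors on the surface, fell by 3.09, and PAG1, which anchors the Src inhibitor CSK, fell by 2.4 (limma adjusted p = 1.17e-05 and 1.86e-05).

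The T cell counterparts of the module ran the other way. Of 10 listed genes 8 were tested and all 8 were lower in B dogs, as were 22.3% of all genes, with a median of -3.45. The eighth, TXK, a Tec family kinase of T cells, lay below the minimum in all 17 B and 13 of 17 T dogs, and it was not called when dimmer values were raised to the minimum (limma adjusted p = 0.156), which leaves 7 of 8. FYN and LCK, the Src family kinases of the T cell receptor, fell by 2.97 and 4.15, and the chains CD247 and CD3E by 3.64 and 4.61. LAT, the scaffold of T cells, fell by 5.15 and lay below the minimum in 9 of 17 B dogs. LCP2 (SLP-76), which holds in T cells the place BLNK holds in B cells, fell by 1.93, and PLCG1, the counterpart of PLCG2, by 3.26, although 12 of 17 B dogs lay below the minimum for it. The limma adjusted p of these 7 genes was at most 1.86e-06. FGR, a further Src family kinase, differed by -0.18 (limma adjusted p = 0.789).

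**Figure D4:**
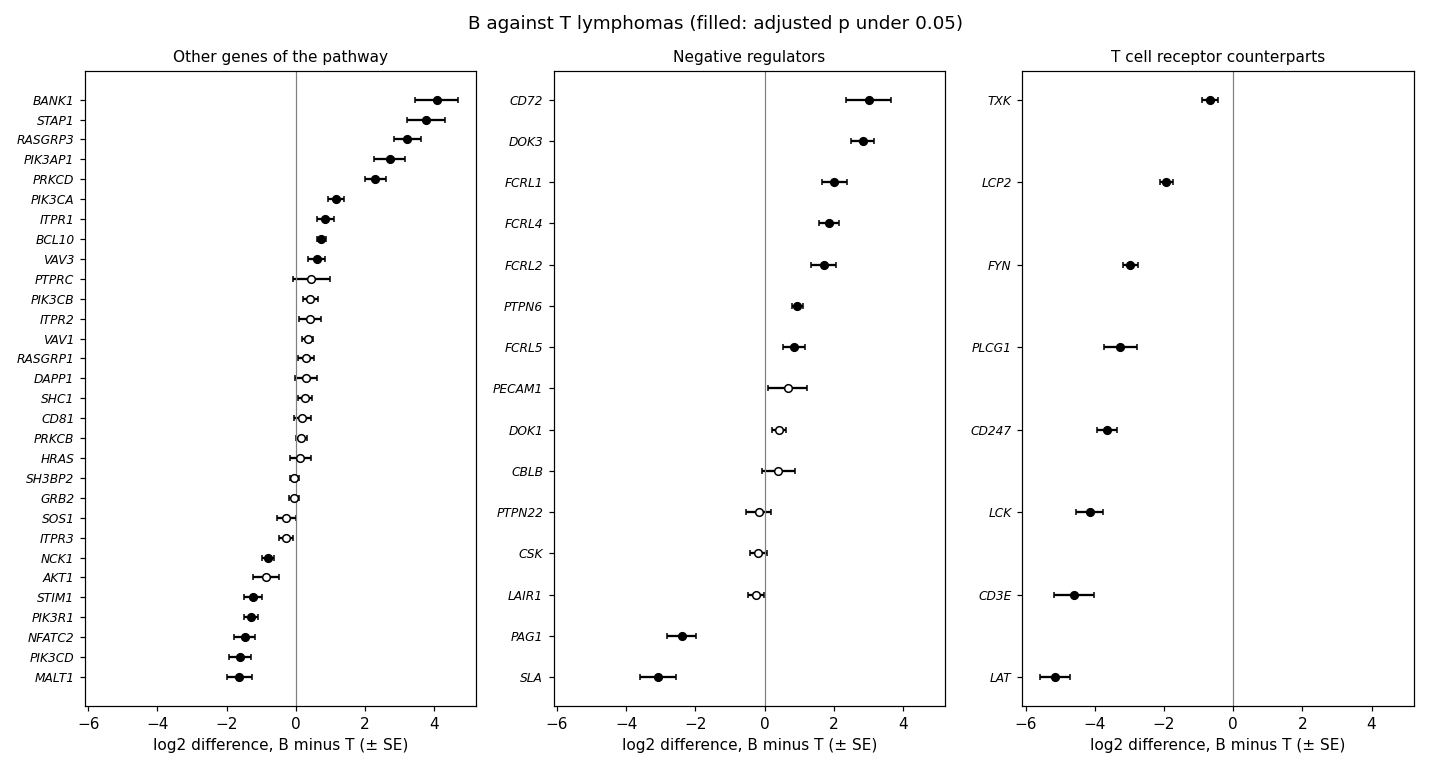
Log2 difference between B and T dogs (B minus T, whiskers of 1 standard error) for further genes of B cell receptor signalling, its inhibitors (a list that also holds FCRL1) and the T cell counterparts, 1 point per gene, filled where limma's adjusted p is under 0.05. The further genes and the inhibitors lie on both sides of 0, from BANK1 (4.08) to SLA (-3.09), and the 8 counterparts lie below 0.

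Between LBT and TZL 1 of 30 further genes rose and 8 fell, beside 17.8% and 12.4% of all genes, and without the array set 4 fell. The share of the list called in either direction is near that over all genes (30.1%). Its balance differed, since more of the list fell than rose, whereas more of all genes rose than fell. This balance was not tested. PTPRC (CD45), the phosphatase that primes Src family kinases, was 11.68 ± 0.81 (n = 4) in LBT, 11.49 ± 0.47 (n = 4) in PTCL and 8.81 ± 2.24 (n = 9) in TZL. It rose against TZL by 2.87 in LBT (SE 0.75, limma adjusted p = 0.00436) and by 2.69 in PTCL (limma adjusted p = 0.0153). SHC1, an adaptor to Ras, fell by 1.23 in LBT (limma adjusted p = 0.000597). PRKCB, a protein kinase C, fell by 0.71 there (limma adjusted p = 0.0107), and BANK1 by 2.69 (limma adjusted p = 0.0469). Of 15 genes of the inhibitor list tested between LBT and TZL, 1 rose and 2 fell, and without the array set 0 rose and 2 fell. PTPN22 rose in LBT by 1.65 (limma adjusted p = 0.03), and DOK1 fell by 0.88 (limma adjusted p = 0.0468). CSK, which switches Src family kinases off, fell against TZL by 1.4 in LBT (limma adjusted p = 0.00102) and by 0.98 in PTCL (limma adjusted p = 0.0331). Its level was 11.8 ± 0.14 in TZL (n = 9) and 10.4 ± 0.56 in LBT (n = 4). Both comparisons share the TZL dogs. Between MZL and TZL, where 15.2% of all genes rose and 12.3% fell, 8 of 30 further genes rose and 4 fell. Of the inhibitor list 6 of 15 genes, FCRL1 among them, rose and 1 fell, and 7 of 8 counterparts fell. Without the array set 7 of 29 further genes rose and 6 fell, and 3 of 15 genes of the inhibitor list rose and 1 fell. Between DLBCL and MZL, BL and DLBCL, and in the grade steps none of these lists had a gene called.

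The genes most like each member, taken as the 2 genes with the highest r over the 34 dogs, were FCRLA (0.97) and CD40 (0.96) for BLNK, LMO2 (0.97) and BANK1 (0.96) for BTK, and BANK1 and ARHGAP24 (both 0.96) for SYK. WDFY4 (0.96) and PLD4 (0.95) were most like CD79B, and SKAP2 and DNASE2 (both 0.96) most like PLCG2. CLEC17A (0.94) and DCLRE1C (0.92) were most like BLK, EBF1 (0.93) and LY86 (0.92) most like CD22, and MS4A1 (0.86) and BMP2K (0.85) most like LYN. CD79A had the lowest such values, with DLA-DMB (0.85) and PPP1R9B (0.83). Within phenotypes BLNK and FCRLA had r = 0.97 over the T dogs and 0.23 over the B dogs, and SYK and BANK1 had 0.96 and -0.05. CLEC17A and BLK had 0.92 over the T dogs and 0.75 over the B dogs. These values describe genes picked by the same measure, with no test.

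The dog labelled NBNT had all 9 genes above the minimum. Its log2 values were 8.44 for CD79A, 9.53 for CD79B, 6.85 for CD22, 9.14 for BLNK and 4.53 for BLK. They were 9.13 for SYK, 8.69 for PLCG2, 10.16 for BTK and 8.88 for LYN. For BLNK, BLK, SYK, PLCG2 and BTK, 5 of the 9 genes, it lay below the lowest B dog and above the median T dog. It had T cell and B cell markers together, with CD3E at 11.38 and MS4A1 at 10.13.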

How the data were processed

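Affymetrix canine arrays were hybridised with biotin-labelled cRNA from total RNA of mechanically dissociated, filtered tumours, per the labels' protocols. The deposited file holds 1 linear intensity per probe set and array, which the authors had computed with GCRMA, per the submitters' processing notes (version not given in the sources used here). No genome build is used here. Values under 1 were raised to 1 before log2 was taken. Of 43035 probe sets, 175 were controls and 29254 were paired with 1 gene symbol, for 15115 genes. The brightest probe set by mean stood for a gene. Of the members' 15 probe sets, 13 were found in the gene table with the same symbol.

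Tests over 34 dogs were run on genes reaching log2 4 in 4 dogs or more, with limma 3.58.1 under R 4.3.3 (lmFit, eBayes, two-sided, Benjamini-Hochberg over 7500 genes). B and T were compared with 2 group means, and disease labels with 6 means that share 1 estimate of the spread. Relations with marker lists were tested with 100000 resamples, which permuted the dogs of a phenotype across its disease labels. The labels do not say whether samples were processed in separate batches. The p-values set differences against the spread between dogs. For disease labels this is the spread of all 6 labels, so comparisons among B labels also use that of the T dogs. An effect of the array set or of RNA quality that goes with a label cannot be told apart from that label. The steps were tested on simulated data.

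The members and gene lists were chosen with earlier results of these data known. The text names all members, the 2 most like genes per member, FGR and up to 4 pathway genes called elsewhere. It also names up to 6 genes per pathway list with the smallest p in B against T. For the T cell counterparts it names 7, PLCG1 being added as the counterpart of PLCG2 after its value was seen. FCRL5, TXK, PTPN22, DOK1, JCHAIN and C1QA were also named after their values were seen. Alternatives were the filter, scaling, floor, variance model, array weights, probe set, repeated array, covariates, the array set, RNA quality controls, Golden Retrievers only, grade, the groups in the fit and leaving out each dog. Leaving out the 2 dogs whose EIF2S3 probe set opposes the sex label was added after seeing the data. List genes with no probe set paired to them were not used here.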

Additional observations from a re-analysis of the deposited data

Results flagged for a closer look

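Each gene was examined in the 5 disease labels with 4 to 10 dogs, 45 sets of values in all, for a dog far from the others of its label relative to the whole range. This flagged 4 values, where chance gives about 2.25. LYN was 4.85 on the log2 scale in DLBCL replicate 3, against 9.32 to 10.47 in the other 9 dogs. BTK was 2.66 in TZL replicate 5, against 7.19 to 10.4 in the other TZL dogs. SYK was 2.87 in the same dog, against 6.26 to 9.54. BLNK was 10.03 in MZL replicate 3, against 10.69 to 10.83 in the other 4 MZL dogs, a small gap within a narrow range. No member's grade step differed between lineages by a test.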

How the results depend on the processing

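Counts of members called stayed within 1.5 times in 138 of 141 alternatives that leave out no single dog. The exceptions are LBT against TZL, where 5 became 2 without the array set, 1 among Golden Retrievers and 2 with only the groups compared. Leaving out each dog gave 0 to 7 there, 0 to 2 for LBT against PTCL, and the same count elsewhere.

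Direction turned for 30 member differences, none called. DLBCL against MZL: CD22 -0.32 with array weights, BLNK 0.05 with the mean of probe sets, 0.02 without the array set and 0.14 with its other probe set, and PLCG2 0.06 with the set as a block and 0.14 without it. BL against DLBCL: BTK 0.01 with centring and 0.57 with sex, breed and age as covariates, SYK 0.25 with these covariates and 0.19 with its other probe set. PTCL against TZL: CD79B 0.34 with array weights and 0.31 without the set, BLNK 0.31, 0.69 and, without the dogs of opposed sex label, 0.35. Without the intermediate PTCL dog BLK was -0.39, SYK -0.24, PLCG2 -0.3 and BTK -0.02. Grade steps: CD79A 0 with the floor at the minimum, -0.8 with array weights, -0.71 without the set and -0.52 without the dogs of opposed sex label, CD22 -0.01 with array weights, BLNK -0.5, -0.68, -0.36 and, with 3' to 5' covariates, -0.06. CD79B was 0.38 and PLCG2 0.28 without the intermediate dog. The cause was not tested.

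Leaving out each dog turned DLBCL against MZL for CD22 (-0.39 to 0.29), BLNK (-0.19 to 0.02) and PLCG2 (-0.12 to 0.07), and BL against DLBCL for CD22 (-1.12 to 0.19), PLCG2 (-0.19 to 0.83) and BTK (-0.29 to 0.23). PTCL against TZL turned for CD79B (-1.41 to 1.04), CD22 (-0.99 to 0.01), BLNK (-1.09 to 0.87), BLK (-0.39 to 0.72), SYK (-0.24 to 1.15), PLCG2 (-0.3 to 1.27) and BTK (-0.08 to 1.21). Grade steps turned for CD79A (-0.63 to 1.11), CD79B (-2.07 to 0.38), BLNK (-0.91 to 1.05) and PLCG2 (-1.29 to 0.28).

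Over all genes, limma's calls moved by over 1.5 times in 29 of these alternatives, in 5 comparisons. DLBCL against MZL went from 0 (977 at an unadjusted p under 0.05) to as many as 378 with array weights. BL against DLBCL went from 2 to between 0 and 12, LBT against PTCL from 51 to between 0 and 96, and PTCL against TZL from 1025 to 547 without the set and 676 without the dogs of opposed sex label. Grade steps went from 147 to 45 and 61 in the same settings and 280 without the intermediate dog. Golden Retrievers alone could not be fitted for BL or PTCL. No paired analysis was possible because each dog is a separate case and the labels carry no shared replicate numbers. Values below the minimum limit the folds of BLK, CD22 and the LBT comparisons.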
